A study of Caenorhabditis elegans with 2 samples.

Results

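Of the 1209 places where chromatin was reproducibly precipitated with LIR-1, 248 (20.5%, exact 95% interval 18.3 to 22.9) had their summit outside every protein-coding gene and outside every promoter window. A promoter window ran from 1000 bp upstream to 200 bp downstream of the 5′ end of a protein-coding gene. The other sites lay in promoter windows (664) or in coding genes outside them (297). The choice used position alone, and neither signal nor neighbouring noncoding genes entered it.

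LIR-1 of Caenorhabditis elegans is a zinc-finger protein of the LIN-26 family. Whole young adults at 63 hours, grown from L1 larvae that had been starved after bleaching, carried the allele st12318, a TY1::EGFP::3xFLAG tag inserted at lir-1 by CRISPR in strain RW12318, and sonicated chromatin was precipitated with an antibody against GFP. There were 2 libraries, labelled biological replicates 1 and 2 of 1 group, and both carried the tag. Depth is unknown, animals without the tag were not analysed here, and cell types cannot be told apart in whole animals.

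The worm genome is compact, so sequence that is neither gene body nor promoter often holds small RNA genes. Genes for transfer RNAs (tRNAs) are transcribed by RNA polymerase III from elements inside the gene, the A box and the B box, which the factor TFIIIC binds. Small nucleolar RNAs (snoRNAs) guide modification of ribosomal RNA, small nuclear RNAs (snRNAs) serve splicing, and SL2 spliced leader RNAs are joined to the 5′ ends of messenger RNAs made from inner operon genes. Other intergenic sequence holds repeats and distal regulatory elements.

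A group of 5 intergenic sites shared a repeated sequence, called element 1 here, and 4 of them are shown because they are among the 20 strongest intergenic sites. The capitals mark the 25 bases that all 6 sites carrying the element share. Each line gives the nearest coding gene and the place on ce11 (RefSeq sequence of WBcel235).
K07D4.2 chrII:4047973-4048057 (minus strand): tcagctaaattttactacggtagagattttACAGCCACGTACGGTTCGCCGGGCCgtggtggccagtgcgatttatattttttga
C46C2.7 chrIV:9196399-9196483 (plus strand): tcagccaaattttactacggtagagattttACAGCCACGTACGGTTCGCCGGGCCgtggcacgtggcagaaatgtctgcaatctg
zip-11 chrIV:3313517-3313601 (plus strand): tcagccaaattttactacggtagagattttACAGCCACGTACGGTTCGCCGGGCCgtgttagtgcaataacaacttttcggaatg
Y116A8A.150 chrIV:16845532-16845616 (minus strand): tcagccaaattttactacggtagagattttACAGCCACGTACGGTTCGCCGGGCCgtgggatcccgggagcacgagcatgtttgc

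A second group of 5 intergenic sites shared element 2, with its common 25 bases in capitals. The strongest of the 5, near F40E3.3, is left out of the sequences printed and has its values with the copies of the element. The bases from the capitals onward are nearly the same. Just before the capitals, the copies printed after the first are also much alike, while the first differs from them. Farther out the flanks before the capitals differ between places.
K08F11.1 chrIV:4727993-4728077 (plus strand): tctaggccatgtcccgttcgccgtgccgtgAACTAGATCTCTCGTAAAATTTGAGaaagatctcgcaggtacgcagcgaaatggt
K08F11.1 chrIV:4720664-4720748 (minus strand): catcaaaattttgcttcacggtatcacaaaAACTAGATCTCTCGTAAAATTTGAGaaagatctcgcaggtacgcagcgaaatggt
K08D10.11 chrIV:4184910-4184994 (minus strand): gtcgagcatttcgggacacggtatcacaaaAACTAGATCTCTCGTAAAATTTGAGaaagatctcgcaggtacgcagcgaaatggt
djr-1.2 chrV:4063718-4063802 (plus strand): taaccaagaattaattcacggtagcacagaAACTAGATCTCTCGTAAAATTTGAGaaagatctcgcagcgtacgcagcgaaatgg

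For tRNA genes, the 3 strongest sites are shown among those with the summit inside the tRNA gene and a B box match in the sequence 50 bp to either side of it. Capitals mark matches to GTTCGANNC on either strand, where N is any base, and the match is a description of the letters.
cyp-13B2 chrX:14228919-14229019 (plus strand): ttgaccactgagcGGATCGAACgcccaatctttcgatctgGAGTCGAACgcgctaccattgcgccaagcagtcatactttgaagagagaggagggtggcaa
dyc-1 chrX:14063953-14064053 (plus strand): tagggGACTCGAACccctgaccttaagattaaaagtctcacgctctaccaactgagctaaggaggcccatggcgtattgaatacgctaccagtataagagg
K02B2.6 chrIV:5967178-5967278 (plus strand): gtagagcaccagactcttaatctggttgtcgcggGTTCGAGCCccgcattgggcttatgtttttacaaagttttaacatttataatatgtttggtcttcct

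Other strong sites held simple runs. The 2 shown are the strongest with no noncoding RNA gene within 200 bp and neither element, and capitals mark 6 or more bases of alternating C and A or alternating G and A, on either strand.
hda-4 chrX:16726970-16727070 (plus strand): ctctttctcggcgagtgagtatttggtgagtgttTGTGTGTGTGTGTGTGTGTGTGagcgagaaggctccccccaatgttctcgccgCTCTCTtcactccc
Y39E4B.6 chrIII:13068419-13068519 (plus strand): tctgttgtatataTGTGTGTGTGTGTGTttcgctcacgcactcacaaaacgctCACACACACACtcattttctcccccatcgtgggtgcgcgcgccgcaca

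Signal at the intergenic sites, the score that the authors' peak caller wrote for both libraries together, ran from 2.18 to 378.0 with a median of 83.5 and quartiles of 69.9 and 103.5. Promoter sites had a median of 92.5 and coding gene sites one of 79.0. On the log2 scale the intergenic median differed from that of promoter sites by −0.15 (interval −0.22 to −0.080 from the spread of intergenic sites alone). In replicate 1's own ranked list, which is on a scale of 1 library, the medians were 40.9 for intergenic and 47.8 for promoter sites, and in replicate 2's they were 42.6 and 46.2. Both replicates gave the lower median to the intergenic sites. In replicate 2's own thresholded list, however, the difference on the log2 scale was −0.040 (interval −0.19 to 0.075), which cannot be told from 0.

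The set was cut from 36486 ranked peaks, of which 3.31% were kept. Of the 7129 ranked peaks that were intergenic, 248 were kept (3.48%, interval 3.07 to 3.93), so the intergenic share was near the background. For ranked promoter peaks it was 7.41% and for ranked coding gene peaks 1.46%. The thresholded list of replicate 1 alone held 140 of the 248 sites (56.5%), against 59.1% of all sites. The list of replicate 2 alone held 95 (38.3%, interval 32.2 to 44.7), against 45.8% of all sites. Both own lists held 70 intergenic sites (28.2%), against 43.1% of promoter sites and 28.3% of coding gene sites. Neither list held 83 (33.5%), against 27.4% of promoter sites and 38.7% of coding gene sites.

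**Figure D1:**
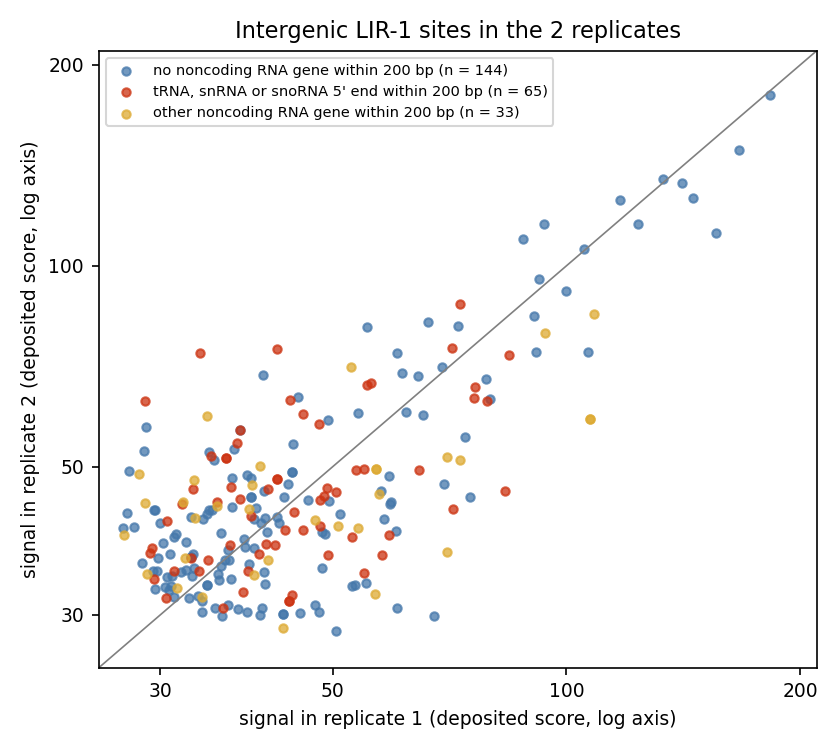
Signal of 242 intergenic sites in the ranked lists of replicate 1 (horizontal) and replicate 2 (vertical), on log axes with the line of equality, coloured by the noncoding RNA gene within 200 bp of the summit. The points near the top right have no noncoding RNA gene beside them, and 116 of the 242 sites were higher in replicate 1.

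Across the 242 sites with a value in both ranked lists, the signals had a Spearman's rho of 0.50, against 0.58 over 1184 sites of every kind. The points come from the same 2 libraries and passed a threshold that asks for agreement, so the value only describes them. The median log2 ratio of replicate 1 to replicate 2 was −0.03 with an SD of 0.40 over sites. Of the 17 sites with a pooled signal under 50, 13 overlapped a stronger site. The weakest, at chrIV:14611564 near dmd-6, had a pooled signal of 2.18, but the replicate 1 peak that it overlapped had 51.4. That peak was shared with a site of signal 40.4, whose summit lay at 14611365. Replicate 2's ranked list had no peak overlapping either site. Without sites that overlap a stronger one, the median of the rest was 85.6 and the lowest value 35.8.

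Most of the strongest intergenic sites had no noncoding RNA gene beside them. Of the 20 strongest, 16 had none within 200 bp, and the first 13 were all of this kind. Over all 248 sites, 146 had none. A wider cut went the other way: of the 114 intergenic members of the strongest 604 sites, 53 had such a gene (46.5%), against 41.1% of all 248. Each of the 20 was in the own thresholded list of both replicates. The highest site, at chrX:16727020, lay 2539 bp upstream of hda-4, a class IIa histone deacetylase. Its pooled signal was 378.0, with 182.6 in replicate 1 and 180.2 in replicate 2 (181 ± 1.69, SD, n = 2). It ranked 5 among all 1209 sites and carries the TG run printed above. The next, at chrIII:13068469, lay 2287 bp upstream of Y39E4B.6 in an interval of 15313 bp, with 326.3 pooled, 167.0 and 149.0 in the replicates.

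For several of the 20, the nearest coding gene has a known role. The site at chrX:4209257 was 1314 bp beyond the 3′ end of hpk-1, a homeodomain-interacting protein kinase, with 105.3 in replicate 1 and 106.0 in replicate 2. The site at chrX:13700878 was 5077 bp beyond adm-2, an ADAM-family gene, and was lower in replicate 1 (87.9) than in replicate 2 (109.7). Upstream of rho-1, the RhoA small GTPase, a summit 3391 bp away at chrIV:16492412 had 108.5 and 84.7, and the ncRNA gene Y51H4A.939 began 160 bp from it. The site 4735 bp upstream of cmd-1, calmodulin, had 93.9 and 79.4 and lay inside the lincRNA gene linc-128. The site 2850 bp upstream of chd-7, a chromodomain helicase, lay inside linc-91 and differed most between the libraries among these, with 107.3 in replicate 1 and 59.0 in replicate 2. A value of 83.2 ± 34.1 (SD, n = 2) describes it.

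The remaining members of the 20 ran between those values. F58D12.1 on V had 243.7, 571 bp beyond its 3′ end, and the sequence within 50 bp held no such run. W02H3.3, F55G7.5, F22H10.2 and C02F12.8, all on X, had pooled signals of 220.3, 205.0, 175.9 and 175.9. The site of rank 20, near cnnm-3, had 166.8 and was the strongest one beside a tRNA gene. In all, 9 of the 20 lay on X, 12 lay over 2000 bp from any coding gene, and 8 held a 25-base sequence found more than once in the genome. Over all 248 intergenic sites the counts were 80 (32.3%), 80 (32.3%) and 91 (36.7%) in the same order.

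Distances to coding genes had a median of 1309.5 bp (interval 1129 to 1509), with a range of 4 to 11297 bp. To judge the values, the same measure was taken for each of the 25108201 bases that the rule leaves (25.04% of the genome), whose median was 1866 bp. Summits within 200 bp of a coding gene numbered 46, or 18.5% of sites (interval 13.9 to 24.0), while 6.60% of the bases lay that near. By the rule all of these sites and bases lie beyond a 3′ end, since the other side of a gene is promoter window. At the other end, 80 sites (32.3%, interval 26.5 to 38.5) were over 2000 bp away, against 47.0% of the bases. No test was made of these or later shares, since sites are not independent samples; the intervals cover counting error only.

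**Figure D2:**
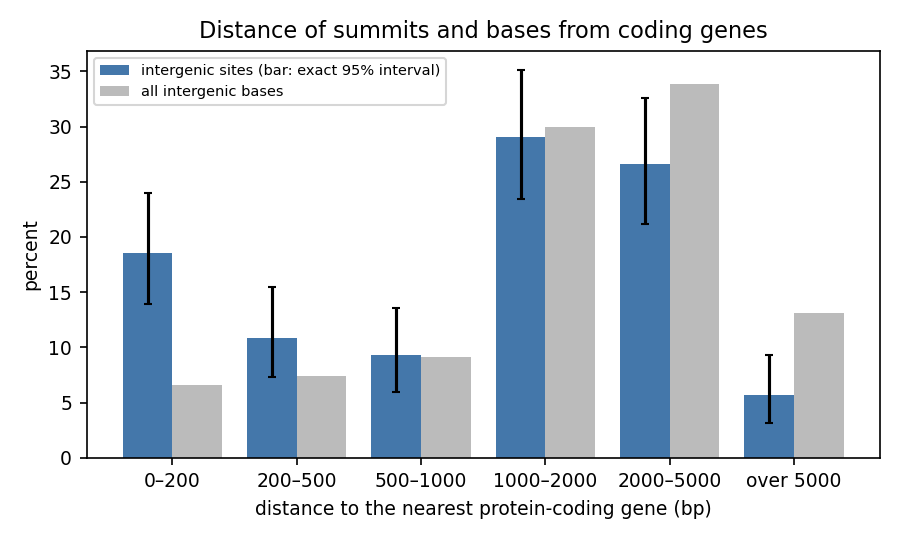
Percent of the 248 intergenic sites (blue, with exact 95% intervals) and of all bases outside promoter windows and coding genes (grey) by distance to the nearest protein-coding gene, in bp. Sites exceed bases in the nearest bin (18.5% against 6.60%) and fall short of them over 5000 bp (5.65% against 13.1%).

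The nearest coding gene end was a 3′ end for 143 sites and a 5′ end for 105 (42.3%, interval 36.1 to 48.8), against 49.5% 5′ ends for the bases. This split follows the promoter window: with a window of 500 bp upstream and 100 bp downstream, 52.3% of 348 sites faced a 5′ end. Sites facing a 3′ end were closer to the gene, with a median of 419 bp against 2295 bp, and their median signals were 83.5 and 84.2. Convergent neighbours, whose 3′ ends face each other, flanked 62 sites (25%, interval 19.7 to 30.9) and 16.5% of the bases. Divergent neighbours flanked 61 sites (24.6%) and 29.8% of the bases. Of the rest, 124 lay between genes on the same strand and 1 had coding genes on 1 side only.

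The sites with coding genes on both sides fell in 215 intervals, and 26 intervals held more than 1 site. The interval between C30E1.4 and F52G3.8 on X held 5, with signals of 124.5, 72.8, 69.4, 60.3 and 21.6. The last of these overlaps the first, so that their replicate values are from the same peaks. The site of 72.8 had its summit inside the tRNA gene WBGene00022952. That of 124.5 was 123 bp upstream of the ncRNA gene C30E1.9, which is 14770 bp long, and the others were inside C30E1.9. The site farthest from any coding gene, 11297 bp from B0294.3 on X, had 48.2 in replicate 1 and 44.6 in replicate 2. Its summit was inside the ncRNA gene Y59E1B.5 and 2 bp upstream of the tRNA gene WBGene00023185 on the other strand. Neither replicate's own thresholded list held this site. The next, 10964 bp from T24D5.1 on X, had its summit inside the tRNA gene WBGene00014474 and a pooled signal of 72.3. The third, 8632 bp from djr-1.2 on V, a DJ-1 family gene, is the element 2 copy printed last in its group. The others, near Y23H5B.5 and W05H9.4, lay 8104 and 7835 bp away with signals of 103.4 and 99.2. The site near Y23H5B.5 was 52 bp upstream of the snoRNA gene Y23H5B.10. Of the 5 farthest, 3 thus had a small RNA 5′ end within 200 bp of the summit.

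The sites just inside and outside each edge of the rule are given as a description. Upstream of dhs-8, H05C05.2 and hrpr-1, summits 1005, 1026 and 1028 bp away counted as intergenic and had signals of 102.5, 71.8 and 93.3. Upstream of ift-43, rbr-2 and ain-1, summits 998, 988 and 986 bp away counted as promoter sites, with 124.9, 115.2 and 330.1. Beyond 3′ ends, the nearest summits outside were 4 bp from mdl-1 (87.2), 18 bp from F58D5.2 (93.3, the same site as that upstream of hrpr-1) and 36 bp from klp-7 (69.0). The nearest inside were 2 bp within rpl-3 (72.0), 28 bp within sid-5 (66.1) and 43 bp within dct-16 (13.3).

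Noncoding RNA genes were common beside the sites. Any such gene lay within 200 bp of 102 summits (41.1%, interval 34.9 to 47.5), while 12.5% of the bases lay that near. A small RNA 5′ end, that is of tRNA, snRNA or snoRNA genes, lay within 200 bp of 68 summits (27.4%, interval 22.0 to 33.4) and of 0.526% of the bases. Among all 7129 ranked intergenic peaks the share was 2.90%. Of the 207 ranked peaks with such a 5′ end, 68 were in the conservative set (32.9%, interval 26.5 to 39.7), and of the 6922 without, 180 were. The median GC content within 50 bp of the summits was 48.5%, against 33.7% for windows tiling the intergenic sequence, and its part in these shares was not tested.

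Genes for tRNAs made up most of this. A tRNA gene lay within 200 bp of 46 sites (18.5% of sites against 0.387% of bases); counting only the nearest for each site, these were 45 different genes. The summit was inside the gene in 27 of the 46 and within 50 bp of its 5′ end in 35, with a median place 19.5 bp downstream of that end. The median length of these genes was 73 bp. The strongest was the site 19 bp upstream of WBGene00023110, with 84.5 in replicate 1 and 73.6 in replicate 2. WBGene00000308 had 71.3 and 75.4 with the summit 31 bp into the gene, and WBGene00022928 had 79.0 and 62.7 with it 40 bp in. Replicate 1 was higher at the first and last of these 3 and replicate 2 at the other. Of the 230 tRNA genes whose 5′ end is intergenic by the rule, 51 (22.2%, interval 16.98 to 28.1) had an intergenic site within 200 bp, and a site can lie that near to several of them.

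The sequences of tRNA genes are repeated, which bears on how reads can be placed. Of the 46 sites, 39 held a 25-base sequence with more than 1 copy in the genome. Since the handling of reads with several matches is not stated, signal at identical copies cannot be assigned to 1 of them. Among the 157 intergenic sites with no repeated 25-base sequence, 24 (15.3%) had a small RNA 5′ end within 200 bp. The B box match printed above was in 32.4% of windows beside the small RNA genes, 1.37% of windows with no noncoding RNA gene and 0.774% of tiling windows. Over all intergenic windows it was in 10.5%, against 9.76% of coding gene windows and 2.86% of promoter windows.

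The snoRNA genes were beside 22 sites (8.87% against 0.169% of the bases). Here the summits lay further upstream: 14 of 22 were upstream of the 5′ end, 5 were inside the gene, and the median place was 26.5 bp upstream. The strongest was 76 bp upstream of W03C9.9, with 76.4 in replicate 1 and 65.9 in replicate 2. T19B4.8 had 42.4 and 74.96, 37 bp upstream, and T06C12.16, near the nuclear hormone receptor gene nhr-102, had 55.4 and 66.3, 46 bp upstream. The first was higher in replicate 1 and the other two in replicate 2. Of the 80 intergenic snoRNA genes, 21 (26.3%, interval 17.04 to 37.3) had a site, and 4 of the 22 sites held a repeated 25-base sequence.

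Other classes were few, apart from the class annotated only as ncRNA. The snRNA class had 2 sites, at the SL2 spliced leader genes sls-2.2 (pooled signal 162.0, 73.0 and 87.7 in the replicates) and sls-2.9 (98.2, with 28.7 and 62.7). Their summits were 25 and 98 bp upstream, and the second is also counted among the tRNA sites, through WBGene00014446. Of 41 intergenic snRNA genes 2 had a site (4.88%), and the class lay beside 0.806% of sites against 0.0814% of the bases. The ncRNA class lay beside 60 sites (24.2% against 5.00% of the bases), but 34 of them were also within 200 bp of a tRNA, snRNA or snoRNA gene. Its strongest sites were those at Y51H4A.939, given above, M02F4.12 (166.8, the site beside WBGene00023110) and C17C3.23 (162.0, the site beside sls-2.2). For lincRNA genes there were 6 sites (2.42% against 0.932% of the bases), 5 with the summit inside the gene. The strongest were at linc-128, linc-91 and linc-164 (177.3, 172.7 and 82.6).

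Genes of piRNAs, the germline small RNAs whose many short genes are mostly on chromosome IV, were beside 3 sites (1.21% against 6.18% of the bases). These were near 21ur-11151, 21ur-5229 and 21ur-14279, with 125.4, 109.2 and 67.0. The first of these is an element 1 copy and the second is beside a tRNA gene. The microRNA class had 1 site (0.403% against 0.207% of the bases). It lay 77 bp upstream of cel-mir-51, with 50.8 in replicate 1 and 40.8 in replicate 2. Pseudogenes lay within 200 bp of 6 sites (2.42% against 12.7% of the bases), and antisense RNA and rRNA genes of 0 of 248, which allows a share of up to 1.48% by the exact interval. These 2 classes lie that near to 0.0802% and 0.0677% of the bases, so 0 sites does not set them apart.

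**Figure D3:**
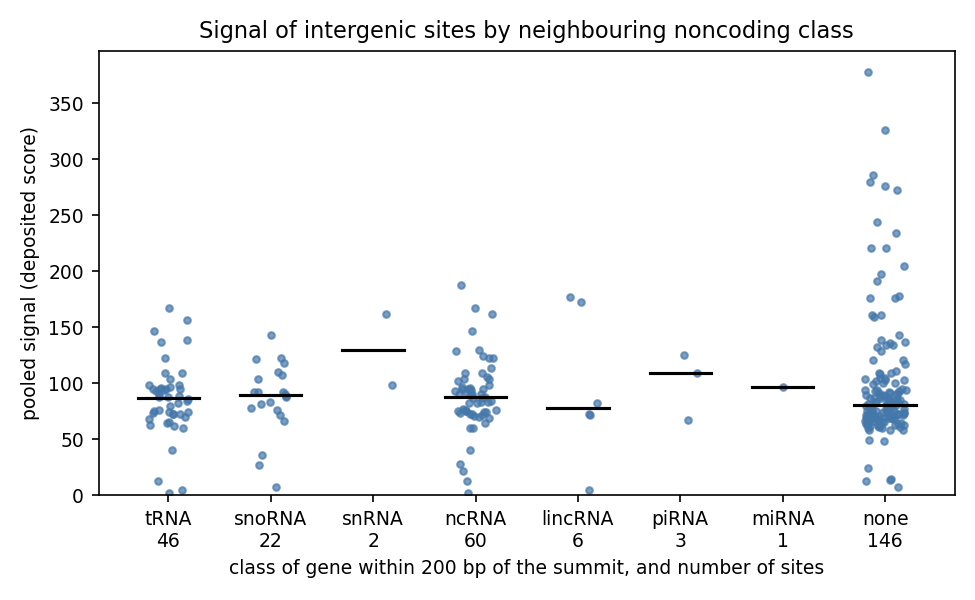
Pooled signal (deposited score) of each intergenic site by class of noncoding RNA gene within 200 bp, with black lines for medians and the number of sites under each class; a site beside genes of 2 classes appears in both. The highest points have no noncoding RNA gene beside them, and the medians were 86.8 for tRNA, 89.4 for snoRNA and 80.9 for sites with no such gene.

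The signal of these groups overlapped up to 188.0, above which all sites had no noncoding RNA gene beside them. The 68 sites beside a small RNA 5′ end had a median of 88.2 (2.18 to 166.8), the 34 beside another noncoding RNA gene 83.3 (5.19 to 188.0), and the 146 with none 80.9 (7.02 to 378.0). In replicate 1 the medians were 43.4, 41.2 and 40.4, and in replicate 2 they were 44.5, 43.9 and 41.8. The order was the same in each library, and the differences were not tested. The median GC content was 51.5%, 48.5% and 47.0% in the same order.

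By chromosome, X held 80 of the 248 sites (32.3%, interval 26.5 to 38.5) and 22.8% of the bases. Of sites of every kind X held 17.9%. Chromosome V held 29 (11.7%, interval 7.97 to 16.4) and 20.6% of the bases, and IV held 40 (16.1%) and 19.99%. A tRNA 5′ end lay beside 32 of the 80 X sites and 14 of the 168 others. Without the sites beside small RNA genes, X held 48 of 180 (26.7%, interval 20.4 to 33.8). X also carries 145 of the 230 intergenic tRNA genes, of which 38 (26.2%, interval 19.3 to 34.2) had a site, and elsewhere 13 of 85 had one (15.3%, interval 8.40 to 24.7). None of the 17 intergenic snoRNA genes on X had a site, which allows up to 19.5%, while 21 of 63 on the other chromosomes did. Sites on X were more often in replicate 2's own list (55.0%, interval 43.5 to 66.2) than the others (30.4%, interval 23.5 to 37.9), and in replicate 1's list the values were 61.3% and 54.2%.

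**Figure D4:**
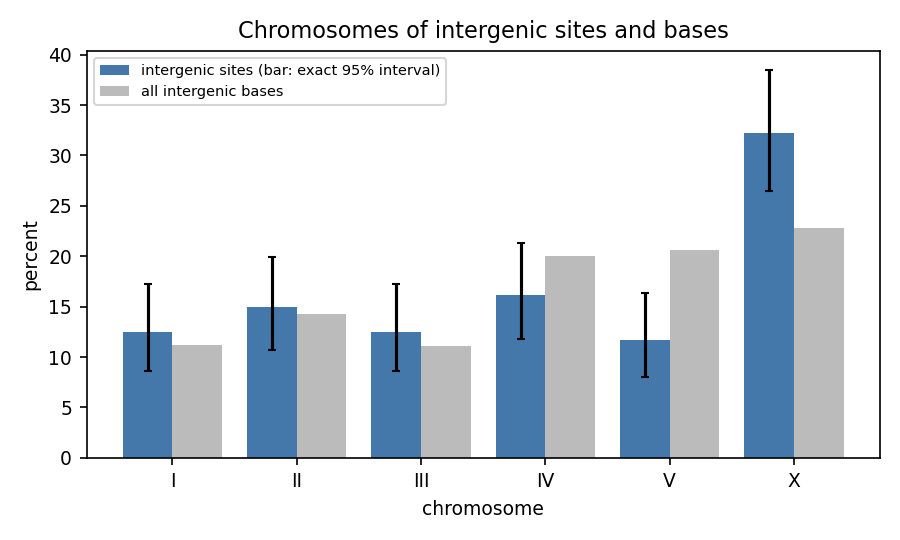
Percent of the 248 intergenic sites (blue, with exact 95% intervals) and of all bases outside promoter windows and coding genes (grey) on each chromosome. The interval of X (26.5 to 38.5) lies above its share of bases (22.8%) and that of V (7.97 to 16.4) below its share (20.6%).

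Repeated sequence was common. Of the 248 windows, 91 (36.7%, interval 30.7 to 43.0) held a 25-base sequence found more than once in the genome, against 16.6% of promoter windows and 29.3% of coding gene windows. The share was 64.7% beside small RNA genes and 28.1% where no noncoding RNA gene was near. Median signals with and without such a sequence were 86.7 and 82.6.

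Element 1 had 9 copies in the genome, found by sequence alignment and at least 91.6% identical to the copy near K07D4.2. Sites of the set lay on 6 copies, 5 of them intergenic and 1 inside mod-5, the serotonin transporter gene. Near K07D4.2 on II the signal was 145.7 in replicate 1 and 126.4 in replicate 2. Near C46C2.7 it was 123.5 and 115.4, and near zip-11, a bZIP factor, 99.8 and 91.8. The copy between Y116A8A.150 and map-2, a methionine aminopeptidase, had 90.8 and 84.0. The copies near ari-1.4 and in mod-5 had 73.0 and 62.5 in replicate 1 and 51.3 and 49.4 in replicate 2, so that all 6 were higher in replicate 1. A copy in xpd-1 had only a ranked peak of 31.5 with an IDR of 0.866, and the copies near F53G2.1 and M162.15 had none. The copy near M162.15 is 98.4% identical over 122 bp, as is that near zip-11.

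Element 2 also had 9 copies, counting the copy printed first, which the others matched over 76 or 77 bp at 96.1% identity or more. These are lengths of the match to that copy, which differs from the others printed just before the capitals. Sites lay on 5, all intergenic. The copy near F40E3.3 had 141.1 in replicate 1 and 132.9 in replicate 2, and the strongest of the 2 copies near K08F11.1 had 133.3 and 134.8. The other copy there had 49.4 and 58.7, and that near K08D10.11 40.5 and 41.1. The copy near djr-1.2 was the most uneven, with 28.6 and 52.8. The copy in the collagen gene col-72 had a ranked peak of 65.1 with an IDR of 0.0512. No ranked peak lay on the copies near fbxa-136, in F28F8.7 and in a promoter window at Y20F4.8. The limit on repeated reads given for tRNA genes applies to both elements. Another element of 9 copies had 4 sites, of which 2 were intergenic (132.3 near imb-3, an importin beta, and 91.6 near cysl-4), and its strongest was in the promoter of mog-4 (330.5).

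**Figure D5:**
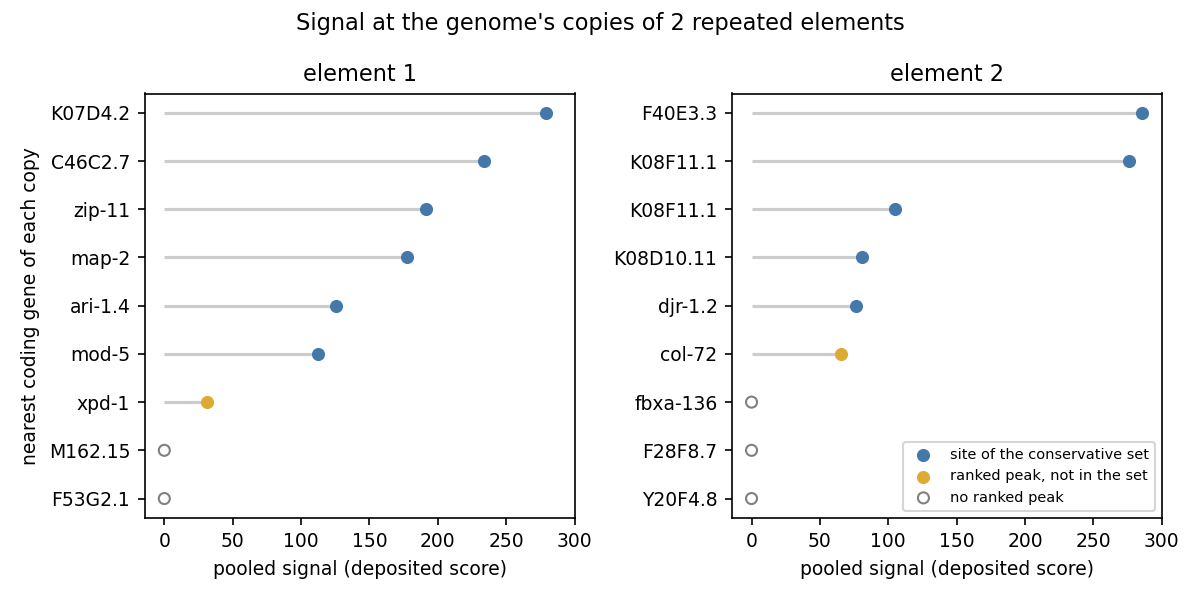
Pooled signal (deposited score) at each of the 9 genome copies of element 1 (left) and element 2 (right), named by the coding gene nearest to the copy's centre. Blue points are sites of the conservative set, yellow points ranked peaks outside it, and open points copies with no ranked peak, drawn at 0; signals of the sites ran from 112.1 to 279.2 for element 1 and from 76.5 to 285.8 for element 2.

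Runs of at least 10 bases of alternating C and A, on either strand, were in 12 of 248 intergenic windows (4.84%, interval 2.52 to 8.30), 1.81% of promoter windows, 6.40% of coding gene windows and 0.322% of tiling windows. The largest group of sites linked by shared 25-base sequences had 18 members, 6 of them intergenic: those near hda-4 (378.0), rho-1 (116.8), srg-36 (113.5), sipa-1 (102.8), Y55B1BR.8 (90.4) and T25G3.1 (85.7). The most frequent 25 bases occur 1578 times in the genome at this rho-1 site, which lies 2746 bp upstream of the gene, and 8 times at the hda-4 site.

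Of 12 motifs looked for on both strands, GAGAGA was in 25% of intergenic, 17.02% of promoter and 5.36% of tiling windows. The GC box CCGCCC was in 8.47%, 5.27% and 1.63%, and CTGCGTC in 6.45%, 10.2% and 0.773%. CCGGAA, the core of ETS factor sites, was in 6.45%, 2.26% and 4.11%, TGATAA, which GATA factors bind, in 6.85%, 2.86% and 9.14%, and CACGTG, an E-box, in 4.03%, 4.37% and 1.37%. TTCCCGC, an E2F-type site, was in 3.23%, 5.57% and 1.41%, and TGACGTCA, a CRE, in 0.806%, 0.753% and 0.506%. Letters rich in A and T went the other way: TTTTTT was in 21.8%, 23.04% and 45.4%, TATAAA in 3.23%, 4.22% and 12.4%, and TTTTTCNG in 2.42%, 3.92% and 9.65%. Tiling windows have the lower GC content given above. In coding gene windows GAGAGA was in 23.6% and TGATAA in 6.40%, near the intergenic shares. There CCGCCC was in 6.06%, CTGCGTC in 9.09%, CCGGAA in 1.68%, CACGTG in 9.43%, TTCCCGC in 1.68% and TGACGTCA in 0.673%. TTTTTT was in 17.5% of them, TATAAA in 4.04% and TTTTTCNG in 4.38%. Over the 146 sites with no noncoding RNA gene, the 6-base sequences with the largest gap in share from promoter windows were AAGAGA (22.6% against 11.8%), AGCCAC (13.01% against 3.46%), GAAAGA (15.1% against 6.93%), AGAGAG (23.97% against 15.96%) and CAGCCA (14.4% against 6.63%). Of these, AGCCAC and CAGCCA both occur in the capitals of element 1.

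The 248 sites had 224 nearest coding genes, 1.12% of the 19973 in the genome. Lists of genes, chosen by symbol and not complete for their class, were counted against that share. Most of the lists with a count of 0 are too short for it to differ from that share. Ribosomal protein (78 genes), homeobox (83), histone (72 his genes), F-box (322), chaperone (59 hsp, cct and dnj genes), T-box (21) and GATA factor (12) lists had 0 nearest to a site. Chemoreceptors had 3 of 1365 (str-170, srg-36 and srh-63, at 118.5, 113.5 and 66.0) and collagens 3 of 177 (col-98, col-83 and col-181, at 88.2, 71.2 and 63.1). Ion channels had 2 of 147 (lgc-53 and lgc-45, at 104.2 and 98.3), nuclear hormone receptors 1 of 269 (nhr-102) and C-type lectins 1 of 240 (clec-182, at 93.1). The list of histone deacetylase and chromatin genes, which does not hold chd-7 or jmjd-2, had 2 of 60: hda-4 at 378.0 and set-8, a histone H4 lysine methyltransferase, at 84.0. These coding genes are nearest by distance alone. The sites of str-170, col-98, col-181, lgc-45, nhr-102 and set-8 had a tRNA or snoRNA gene within 200 bp. Those of srg-36 and col-83 had an ncRNA gene within 200 bp. Which gene such a site belongs to was not tested.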

How the data were processed

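Peaks of LIR-1 chromatin were described from the lists that the authors deposited on ce11, per the labels. Per the deposited manifests, lists were made from filtered alignments and a control alignment. Neither the aligner, the caller nor the handling of reads with several matches was given in the sources used here. Signal, as deposited, is a score of the caller whose scale is not stated, and the deposited ranked list gives −log10 of the global IDR (irreproducible discovery rate). Read totals are not given, so depth is unknown.

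Sites were the conservative set, placed by summit on Ensembl release 115 genes. Signal of a replicate is that of the strongest overlapping peak in its own ranked list. Where this was missing (2 sites in replicate 1, 4 in replicate 2), no mean was formed. Sequence windows held the summit and 50 bp on either side, from RefSeq WBcel235, the same assembly as ce11. Element copies were found with blastn 2.17.0 (identity of 80% or more over 75 bp). Intervals are exact binomial (Clopper-Pearson) at 95%, and those of medians come from ranks. Placement was tested on simulated data. Members, lists and motifs were chosen with earlier results of these data known. Named are the 20 strongest and 5 farthest sites, 3 on each side of each edge, up to 3 per noncoding class or gene list, all motifs and at most 5 6-base sequences. 1 of the 20 strongest sites is not reported here. Sites in the last element, in the interval with most sites and in the C and A runs, and the weak site near dmd-6, were named after their values were seen. The alternatives tried were other peak lists, windows, distances, gene models and merging.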

Additional observations from a re-analysis of the deposited data

How the results depend on the processing

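For the 8 summary results, 65 of 88 values under the alternatives stayed inside the 95% interval of the reported value and 23 lay outside it. Promoter windows from every transcript 5′ end kept the same 248 intergenic sites. Only the log2 difference from promoter sites could move there, and it was −0.11. The unchanged values of that alternative are counted among the 65 and say nothing of stability. The log2 difference from promoter sites, the only result that can change sign, stayed negative under each alternative. Without replicate 1, however, its interval was −0.19 to 0.075, which includes 0. The intergenic share of sites was 28.8% with a promoter window of 500 bp up and 100 bp down, 14.6% with 2000 bp up, 17.5% when whole peaks had to lie outside, and 17.05% among sites with no repeated 25-base sequence, an alternative chosen after seeing the data. The median distance to a coding gene was 846 bp, 1642 bp and 1580 bp under the windows and the whole-peak rule. The share over 2000 bp away was 22.99% and 45.2% with the narrow and wide windows, 61.3% when counted over 1000 bp and 5.65% over 5000 bp. The share facing a 5′ end was 52.3% and 33.3% with those windows and 36.02% in the other thresholded set of the series. The windows set these values by construction; for that set, the cause was not tested.

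The share beside small RNA 5′ ends was 15.3%, and beside any noncoding RNA gene 33.1%, without repeated sequence. The latter was 20.97% for summits inside the gene and 30.2% without the piRNA and ncRNA classes. The median signal was 106.6 among intergenic members of the strongest 604 sites.

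With either replicate's own list alone, the intergenic share was 17.2% (without replicate 1) or 18.8% (without replicate 2). The median signal was 50.5 to 58.3, on the scale of 1 library. The log2 difference from promoter sites was −0.17 to −0.040, the share beside small RNA 5′ ends 28.0% to 28.2%, beside any noncoding RNA gene 40.4% to 41.0%, facing a 5′ end 37.2% to 41.0%, over 2000 bp away 32.7% to 33.0%, and the median distance 1319 to 1404 bp. No paired analysis was possible because there is 1 group. Depth is unknown and an untagged library was not analysed here, so weak sites cannot be told from background precipitation.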
